A study of Mus musculus with 4 samples.

Results

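Blood vascular endothelial cells of the mouse ascending aorta were taken from single-cell RNA libraries as the barcodes that held at least 3 UMIs (unique molecular identifiers, each counting 1 captured transcript) of Pecam1, Cdh5 and Vwf together. A barcode also had to hold fewer than 2 UMIs of the lymphatic genes Prox1, Mmrn1 and Flt4, no UMI of the leukocyte gene Ptprc, and less than 0.3% of its UMIs from the smooth muscle genes Acta2 and Tagln. The limits selected 1773 cells of 40565 barcodes that had at least 200 genes and less than 20% mitochondrial UMIs. They were 373 cells in AD_ABR library 1 and 491 in AD_ABR library 2, against 373 in AD library 1 and 536 in AD library 2.

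Both groups were wild-type male mice that received BAPN, which blocks cross-linking of elastin and collagen by lysyl oxidases, at 1 g/kg per day in their water for 4 weeks from 3 weeks of age, a treatment that brings on aortic dissection. The AD_ABR mice were also given paquinimod (ABR in the labels), a quinoline-3-carboxamide known to bind S100A9, by gavage at 10 mg/kg per day, and the AD mice had BAPN alone. There were 2 libraries in each group and none from mice without BAPN, so every difference here is between BAPN with paquinimod and BAPN alone. The labels do not say how many mice made up a library, and p-values measure the spread between these libraries only.

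Endothelial cells line the inside of the aorta, the small vessels of its outer wall and the heart side of the valves. They pass oxygen, lipids and signals to the wall, and when inflammatory signals reach them they turn on NF-kB, a transcription factor held in the cytoplasm by inhibitor proteins, and place selectins, ICAM-1 and VCAM-1 on their surface, which slow and hold leukocytes. Arterial endothelium is known for the connexins encoded by Gja5 and Gja4 and for Notch signalling, veins for Selp, Nr2f2 and Ackr1, and capillaries for the lipid carriers encoded by Cd36 and Fabp4.

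The whole libraries held 9116 and 10806 kept barcodes in AD_ABR, against 9945 and 10698 in AD, with median UMIs of 9529 and 8398 against 5569 and 7292. The endothelial cells held 4118718 and 4682439 UMIs in AD_ABR, against 3290880 and 4383865 in AD, with a median per cell of 9473 and 8395 against 7247 and 6233. No barcode of the endothelial cells occurred in a second library, and 18 to 36 kept barcodes were shared by a pair of libraries. The 45S ribosomal RNA repeat Rn18s-rs5 took 2.08% and 1.44% of endothelial UMIs in AD_ABR, against 6.36% and 3.72% in AD. AD library 1 stood apart: it held 4194 Ptprc-positive barcodes, against 648 to 2115 in the other libraries, and haemoglobin transcripts in its endothelial cells, where the summed erythroid markers had 0.73 and 0.64 CPM (counts per 1000000 UMIs) in AD_ABR and 119 and 0.46 CPM in AD. Results that rest on it are given with and without it where the fit without it could be made.

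The lower UMI limit fell among many cells in every library. Exactly 3 UMIs of the endothelial genes were held by 37 and 69 members in AD_ABR, against 26 and 32 in AD, and 104 and 134 further barcodes in AD_ABR, against 45 and 81 in AD, met every other limit but held 2. The smooth muscle limit removed 203 and 219 barcodes in AD_ABR and 41 and 117 in AD, and the lymphatic limit removed 32 and 25 in AD_ABR and 170 and 108 in AD. Just outside the lymphatic limit, with 2 such UMIs, stood 2 and 5 barcodes in AD_ABR and 30 and 11 in AD. These are the values the limits act on, and no test was made of them.

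The label was checked by sub-clustering the cells on genes that did not differ between the groups, which left out 2935 of 15146 genes. The 10 sub-clusters were numbered by size, from 1 (419 cells) to 10 (42 cells). Sub-clusters 2, 3, 4, 5 and 7 had Gja5 in common and held 1037 cells, here called the Gja5 sub-clusters. Each detected 7 to 10 of 10 arterial markers in at least 10% of its cells, and 3 of 8 venous ones. Over all libraries they had 307 CPM of Gja5, 2883 CPM of Pecam1, 583 CPM of Cdh5, 738 CPM of Vwf, 1707 CPM of Ptprb and 531 CPM of Emcn. Ptprb encodes the endothelial phosphatase VE-PTP and Emcn the surface mucin endomucin, and neither was used to choose the cells.

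Sub-clusters 1 and 9 went against the label. They were led by fibroblast genes, among them Lum, Fbln1 and Mfap4 in sub-cluster 1 and Aspn, Cd248 and Igfbp6 in sub-cluster 9, and held 486 cells. Together they had 603 CPM of Pecam1 but 44.9 CPM of Cdh5, 43.6 CPM of Vwf and 21.0 CPM of Emcn, beside 9560 CPM of the matrix gene Dcn. In sub-cluster 1, 94.5% of the cells had neither a Cdh5 nor a Vwf UMI, and 65.6% had 3 to 5 UMIs of the 3 endothelial genes, so that Pecam1 alone had admitted them. The leading genes of sub-cluster 1 also included Rbp4, Hhip and the pericyte marker Abcc9. In at least 10% of its cells it detected 7 of 7 fibroblast markers and 5 of 6 pericyte markers. Their mean log2 folds over the other chosen cells were 2.63 and 2.28. In sub-cluster 9, 49.3% of 67 cells had a high doublet score. Sub-clusters 1 and 9 are called the fibroblast-gene-led sub-clusters and are given separately below.

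**Figure D1:**
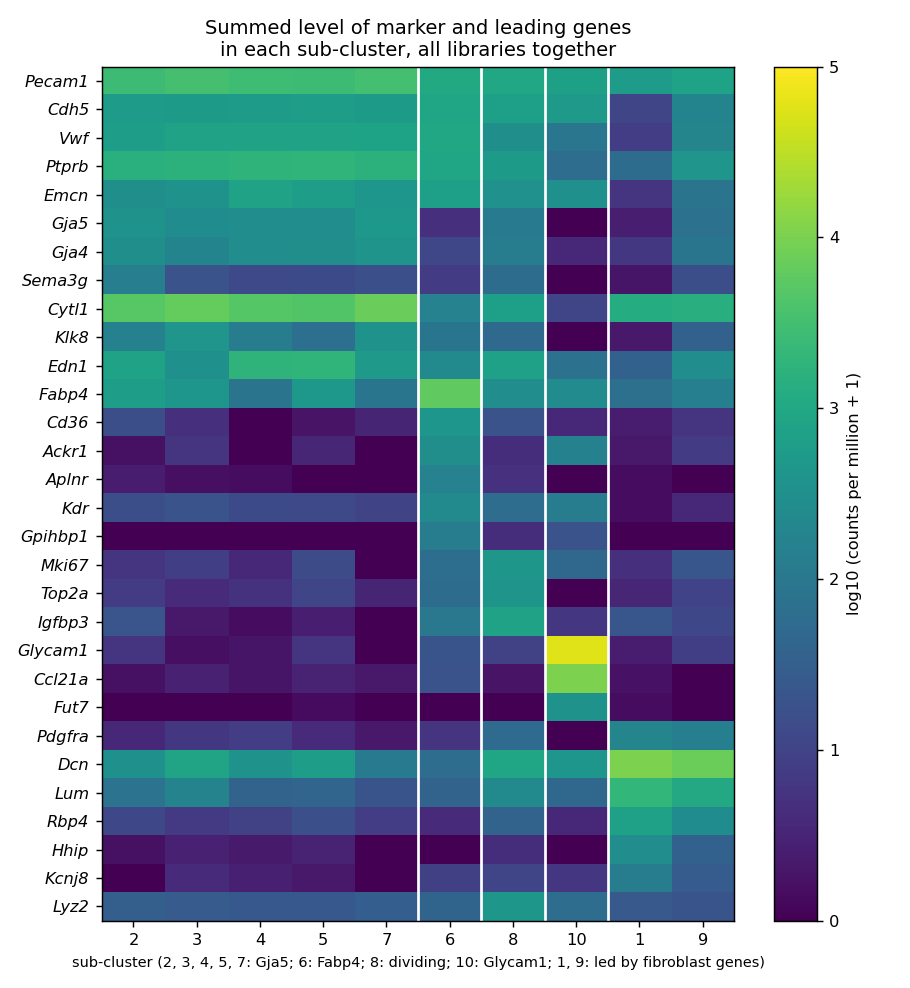
Heat map of log10 CPM, summed over the 4 libraries, for marker and leading genes (rows) in the 10 sub-clusters (columns). The Gja5 sub-clusters carry Pecam1, Cdh5, Vwf, Ptprb and Emcn together, sub-cluster 6 carries Fabp4, Cd36 and Ackr1, sub-cluster 10 carries Glycam1, and sub-clusters 1 and 9 carry Dcn and Pdgfra with little Cdh5 or Vwf.

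The other 3 sub-clusters were smaller. Sub-cluster 6 (138 cells) was led by Fabp4, Cd36, Lrg1, Tmem252, Ackr1 and Nrp2, with 6020 CPM of Fabp4, 292 CPM of Ackr1 and 3.93 CPM of Gja5. It detected 8 of 8 venous and 8 of 9 capillary markers by the same measure and is called the Fabp4 sub-cluster. Sub-cluster 8 (70 cells) was led by Igfbp3 and the cell division genes Ube2c, Cenpf, Mki67 and Top2a, and 31.4% of its cells had a high doublet score. Sub-cluster 10 (42 cells) was led by Glycam1, Ccl21a, Ubd, Enpp2, Ifit2, Cxcl10 and Rsad2, with 57810 CPM of Glycam1, 355 CPM of Fut7 and 99.0 CPM of Chst4. Glycam1 encodes a sulphated ligand of L-selectin, Fut7 and Chst4 encode enzymes that finish such ligands, and Ccl21a encodes a chemokine for lymphocytes, all known from the high endothelial venules of lymph nodes.

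The endothelial cells as chosen by the limits made up 4.32 ± 0.32% of kept barcodes in AD_ABR and 4.38 ± 0.89% in AD (SD, n = 2 each), with 4.09% and 4.54% in AD_ABR against 3.75% and 5.01% in AD. The ranges overlapped, and the difference of −0.06 points had a p of 1.0 in a two-sided exact permutation test, whose smallest possible value with 2 against 2 is 0.333. Without the fibroblast-gene-led sub-clusters, an alternative chosen after seeing the data, the share was 2.48% in AD_ABR and 3.83% in AD (exact permutation p = 0.333).

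The makeup of these cells differed between the libraries. The fibroblast-gene-led sub-clusters held 37.8% and 47.0% of the chosen cells in AD_ABR, against 13.4% and 11.9% in AD. The Gja5 sub-clusters held 59.5% and 49.1% in AD_ABR, against 44.8% and 75.9% in AD, so these ranges overlapped. Within them sub-cluster 7, led by Klk8, Pla2g5 and Ecrg4, had 47 and 53 cells in AD_ABR and 6 and 22 in AD, while sub-cluster 3, with Mal and Klk8 among its leading genes, had 25 and 33 cells in AD_ABR and 33 and 156 in AD. No sub-cluster share could pass the exact permutation test with 2 libraries a group.

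**Figure D2:**
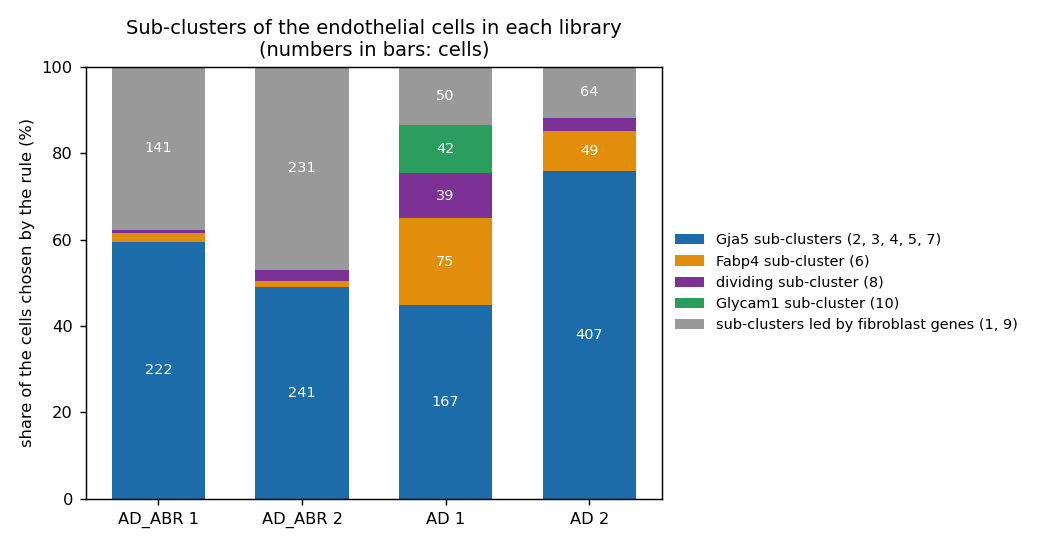
Stacked bars of the percentage of the chosen cells in each group of sub-clusters, 1 bar per library, AD_ABR left of AD. The fibroblast-gene-led part is the taller one in both AD_ABR bars (37.8% and 47.0%, against 13.4% and 11.9%), the Fabp4 part is the taller one in both AD bars, and the Glycam1 part occurs in AD library 1 alone.

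The Fabp4 sub-cluster was scarce in AD_ABR. It held 7 and 7 cells there, against 75 and 49 in AD, or 1.88% and 1.43% of the chosen cells against 20.1% and 9.14%. An edgeR quasi-likelihood test on the cell numbers of all 10 sub-clusters gave a log2 fold change of −3.13 ± 0.93 (SE) and a Benjamini-Hochberg adjusted p of 0.0374, and no other sub-cluster passed it. The exact permutation p was 0.333. Sub-cluster 1 had a log2 fold change of 2.00 ± 0.85 in the same edgeR test, with an adjusted p of 0.121. All 42 cells of the Glycam1 sub-cluster came from AD library 1, and 0 cells of 373 and 491 in AD_ABR and of 536 in AD library 2 allow a share of up to 0.804%, 0.611% and 0.560%, a limit that covers counting error only. Lymph node tissue in that library was not tested.

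Across all chosen cells, UMIs were summed per library and compared gene by gene. Of 12402 genes tested, 376 rose (3.03%) and 513 fell (4.14%) in AD_ABR at an adjusted p under 0.05 by edgeR's quasi-likelihood test, 7.17% in all, and the libraries of the groups did not overlap for 56.9% of genes. When the fibroblast-gene-led sub-clusters were left out, 74 genes rose and 236 fell, and 199 of the 889 calls were made again in the same direction, while 47 had the opposite sign. With the Glycam1 sub-cluster left out as well, 161 rose and 433 fell, 325 of the 889 were made again and 48 had the opposite sign. In a sum over cells, fewer cells of a type and less RNA per cell cannot be told apart.

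The genes with the largest rises were ones that the fibroblast-gene-led sub-clusters carried. Rbp4, which encodes a retinol carrier, had 251 and 460 CPM in AD_ABR against 30.4 and 34.9 CPM in AD, a log2 fold change of 3.43 ± 0.32 (adjusted p = 0.00251). Without AD library 2 it missed the threshold, with an adjusted p of 0.051, and without the fibroblast-gene-led sub-clusters it was 2.00 with an adjusted p of 0.247. Rbp4 stood at 626 CPM in those sub-clusters and at 10.3 CPM in the Gja5 sub-clusters. Kcnj8, which encodes a potassium channel subunit known from pericytes, had 50.5 and 64.1 CPM in AD_ABR against 10.9 and 10.0 CPM in AD (log2 fold change 2.44 ± 0.22, adjusted p = 9.15e-04), and stood at 105 CPM in the fibroblast-gene-led sub-clusters and 1.39 CPM in the Gja5 sub-clusters. Without the fibroblast-gene-led sub-clusters Kcnj8 was too low to be tested, with 2.73 and 2.57 CPM in AD_ABR against 2.60 and 3.88 CPM in AD, from 7 and 6 UMIs against 7 and 14 UMIs, which overlapped. Cox4i2, encoding a subunit of cytochrome c oxidase, had 37.4 and 25.4 CPM in AD_ABR against 2.43 and 3.19 CPM in AD (3.43 ± 0.32, adjusted p = 9.15e-04). Without those sub-clusters it too was not tested, with 3.12 and 1.29 CPM in AD_ABR against 1.12 and 1.94 CPM in AD, which also overlapped. The pericyte markers summed to 435 and 477 CPM in AD_ABR and 151 and 199 CPM in AD over all chosen cells, and to 71.2 and 80.0 CPM against 52.7 and 77.1 CPM in the Gja5 sub-clusters.

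Many of the largest falls were genes of the Fabp4 sub-cluster. Cd36, the fatty acid transporter, had 6.31 and 3.84 CPM in AD_ABR against 51.0 and 62.0 CPM in AD, a log2 fold change of −3.50 ± 0.26 (adjusted p = 2.57e-04). Kdr, the main VEGF receptor, had 9.23 and 6.62 CPM in AD_ABR against 67.2 and 42.9 CPM in AD (−2.81 ± 0.29, adjusted p = 0.00158). Nrp2, a VEGF co-receptor of veins and lymphatics, fell by 3.71 ± 0.51 on the log2 scale (adjusted p = 0.0194). The groups did not overlap for any of these, and all stood higher in the Fabp4 sub-cluster than in the Gja5 sub-clusters, at 413 against 3.60 CPM for Cd36, 234 against 13.4 CPM for Kdr and 316 against 2.32 CPM for Nrp2. Within the Gja5 sub-clusters Kdr had 13.8 and 10.3 CPM in AD_ABR and 12.2 and 15.7 CPM in AD, which overlapped (−0.30 ± 0.31, adjusted p = 0.652). Of the 889 calls, 248 (27.9%) were also made in the Gja5 sub-clusters, 246 of them in the same direction.

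Further falls were seen in the Gja5 sub-clusters as well. Rgs16, an inhibitor of G protein signalling, had 2.43 and 1.50 CPM in AD_ABR against 51.4 and 35.4 CPM in AD (−4.47 ± 0.34, adjusted p = 2.57e-04). It too stood higher in the Fabp4 sub-cluster, at 202.5 CPM, than in the Gja5 sub-clusters, at 3.83 CPM. In the latter it had 0.81 and 0.47 CPM in AD_ABR against 6.49 and 7.86 CPM in AD, from 2 and 1 UMIs against 8 and 22 UMIs. Ankrd1, a nuclear ankyrin repeat protein induced by YAP, had 1.21 and 1.28 CPM in AD_ABR against 27.96 and 33.5 CPM in AD (−4.60 ± 0.31, adjusted p = 1.72e-04), and in the Gja5 sub-clusters 2.03 and 1.88 CPM against 14.6 and 50.4 CPM (−4.22 ± 0.73, adjusted p = 0.0243). Over all chosen cells Ankrd1 missed the threshold, at an adjusted p of 0.0833, when up to 1% of UMIs from Acta2 and Tagln were allowed.

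The comparison within the 1037 Gja5 cells, chosen after the mixed makeup had been seen, sets arterial-type cells against each other. Of 10488 genes tested, 157 rose (1.50%) and 419 fell (4.00%), 5.49% in all, in AD_ABR by edgeR's quasi-likelihood test with Benjamini-Hochberg adjustment, the median over all genes was 0.00 on the log2 scale, and the groups did not overlap for 52.8% of genes. All adjusted p-values of the following paragraphs come from this test. DESeq2 called 59 rises and 201 falls. The cells held a median of 8803 and 7008 UMIs in AD_ABR and 5897 and 5734 in AD, and Rn18s-rs5 took 2.38% and 1.81% of their UMIs against 6.99% and 4.36%. In AD_ABR, smooth muscle markers summed to 1172 and 1044 CPM, against 562 and 861 CPM in AD; fibroblast markers summed to 1604 and 2018 CPM, against 1381 and 2018 CPM. Macrophage markers summed to 53.7 and 74.8 CPM in AD_ABR and 105 and 50 CPM in AD, and neutrophil markers to 1.22 and 0.94 CPM against 38.1 and 0.71 CPM. Markers of endocardial or valve endothelium summed to 5713 and 6066 CPM in AD_ABR and 3829 and 5271 CPM in AD, nearly all of it Cytl1. Over all libraries Cytl1 had 4426 to 7263 CPM in the single Gja5 sub-clusters, and Nfatc1 44.9 to 115 CPM. The others were low, at most 26.2 CPM for Npr3, 13.4 CPM for Hapln1, 10.4 CPM for Wnt9b and 7.31 CPM for Tmem108. Cells of the valve side are not set apart here. The T cell gene Cd3e and the B cell gene Ms4a1 were at 0 in all 4 libraries, and neither list summed to more than 1.62 CPM in any. The 7 lymphatic markers, some of which the limits act on, summed to 22.8 and 22.6 CPM in AD_ABR and 52.7 and 43.2 CPM in AD; Mmrn1 was at 0 in all 4 libraries, and of 2 tested Lyve1 fell (−1.12 ± 0.28, adjusted p = 0.0238). The part of these values in the results below was not tested.

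Both selectin genes and Icam1 were lower in AD_ABR. Of 14 leukocyte adhesion genes tested, of 18 listed, 5 fell and none rose, and the list had a median of −0.43 on the log2 scale. Sele, the E-selectin gene (chromosome 1, 164048234 to 164057677, plus strand, GRCm38), had 68.8 and 32.5 CPM in AD_ABR against 313 and 315 CPM in AD. Its log2 fold change was −2.67 ± 0.26 (adjusted p = 2.07e-04); without AD library 2 the fold was −2.66 with an adjusted p of 0.107. Selp, the neighbouring P-selectin gene, had 231 and 256 CPM in AD_ABR against 680 and 571 CPM in AD (−1.42 ± 0.16, adjusted p = 2.40e-05). Icam1 had 566 and 539 CPM in AD_ABR against 1303 and 1314 CPM in AD (−1.30 ± 0.14, adjusted p = 2.40e-05). For these 3 genes no AD_ABR library reached the lowest AD library. Vcam1 had 1373 and 1314 CPM in AD_ABR against 1862 and 2170 CPM in AD (−0.64 ± 0.15, adjusted p = 0.0126), and lost its call without either AD_ABR library, with an adjusted p of up to 0.352. Podxl, encoding podocalyxin, fell by 0.88 ± 0.19 (adjusted p = 0.0128) and lost its call without AD_ABR library 2 (0.0553). Icam2, which endothelium carries at rest, had 603 and 634 CPM in AD_ABR and 331 and 497 CPM in AD, and did not pass (0.51 ± 0.17, adjusted p = 0.103).

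The lower level was present in most sub-clusters. Each AD_ABR library had less Selp and Icam1 than either AD library in 5 of 5 Gja5 sub-clusters, and Sele and Vcam1 in 4 of 5. In sub-cluster 7 AD library 1 had only 6 cells, with 3 UMIs of Selp and 10 UMIs of Icam1. How many of all genes do not overlap in each sub-cluster was not computed. Over the Gja5 sub-clusters together it was 52.8% of genes. When each cell was thinned to 2000 UMIs, which left out 7 to 19 cells per library, 6.57% and 3.07% of Gja5 cells had a Sele UMI in AD_ABR, against 25.6% and 24.5% in AD. Unthinned, the shares were 17.1% and 12.9% against 41.9% and 37.6%. In smooth muscle cells, which should lack the gene, the thinned shares were 0.03% and 0% in AD_ABR and 0% and 0.47% in AD, at median depths of 10342 and 9356 UMIs against 8268 and 7999 UMIs. Those cells were chosen to hold no UMI of Pecam1, Cdh5 or Vwf. Their shares therefore cannot measure stray endothelial RNA or doublets.

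Of the NF-kB subunits and the genes that feed back on NF-kB, all 18 were tested, 10 fell, none rose, every log2 fold change was negative and the median was −1.01. Nfkbiz, a nuclear co-factor of NF-kB, had 244 and 198 CPM in AD_ABR against 963 and 763 CPM in AD (−2.02 ± 0.17, adjusted p = 3.19e-06). Tnfaip3, which encodes the deubiquitinase A20 that ends TNF signalling, had 31.3 and 23.1 CPM in AD_ABR against 153 and 116 CPM in AD (−2.34 ± 0.21, adjusted p = 3.19e-06). Nfkbia, the inhibitor that holds NF-kB in the cytoplasm, had 979 and 999.8 CPM in AD_ABR against 2040 and 2723 CPM in AD (−1.33 ± 0.16, adjusted p = 5.30e-05). For each of these genes both AD libraries stood above both AD_ABR libraries. Rel, the c-Rel subunit, fell by 2.13 ± 0.22, Bcl3, an atypical inhibitor, by 1.91 ± 0.28, and Irf1, an interferon-regulated factor that NF-kB also induces, by 1.67 ± 0.16. The other 4 that fell were Nfkb1, Rela, Birc3 and Tnip1. All 6 genes given with values kept their call in each of the 4 fits that left out 1 library, in which 8 to 11 genes of the list were called.

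**Figure D3:**
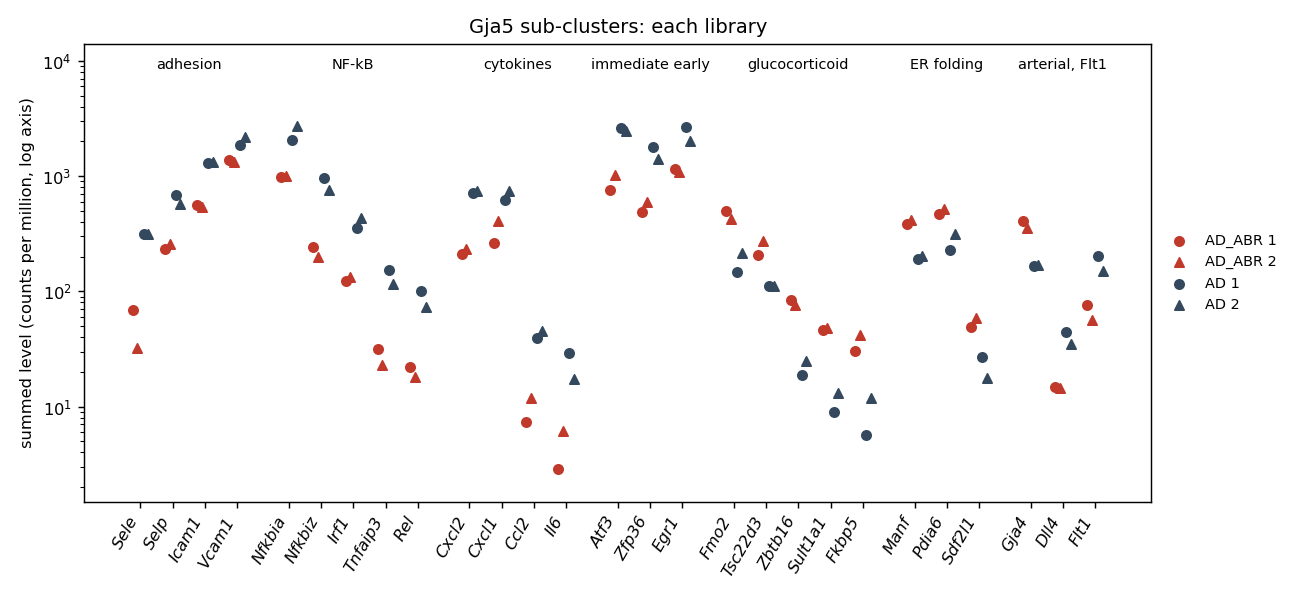
Level in CPM (log axis) of 27 genes in the Gja5 sub-clusters, 1 point per library, AD_ABR drawn left of AD, grouped by role. Sele, Selp, Icam1, Nfkbiz and Tnfaip3 are lower in both AD_ABR libraries (for Sele 68.8 and 32.5, against 313 and 315), and Zbtb16, Fkbp5, Sult1a1 and Gja4 are higher in both.

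Several chemokine and cytokine genes fell. Of 16 tested, of 23 listed, 7 fell and none rose, with a median of −1.14. Cxcl2, a neutrophil attractant, had 210 and 235 CPM in AD_ABR against 708 and 741 CPM in AD (−1.76 ± 0.15, adjusted p = 3.19e-06). Ccl2, a monocyte attractant, had 7.32 and 11.8 CPM in AD_ABR against 39.7 and 45.7 CPM in AD (−2.25 ± 0.26, adjusted p = 3.83e-05). Il6 had 2.85 and 6.12 CPM in AD_ABR against 29.2 and 17.5 CPM in AD, from 7 and 13 UMIs against 36 and 49 UMIs (−2.37 ± 0.40, adjusted p = 0.00129). Cxcl1, the other main neutrophil attractant, had 261 and 408 CPM in AD_ABR against 617 and 737 CPM in AD (−1.08 ± 0.19, adjusted p = 0.00323), and missed the threshold without AD_ABR library 1 or without AD library 2, with an adjusted p of up to 0.182. Ccl7, Csf1 and Tnf completed the 7. The list had 4 to 9 calls when 1 library was left out, and the lowest came without AD_ABR library 1.

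The promoters of the adhesion, chemokine and inhibitor genes are shown because these genes fell together. Each runs from 250 bases before to 50 bases after the RefSeq transcript start on GRCm38.p6, 5′ to 3′ on the gene's strand, and capitals mark matches to the NF-kB consensus on either strand. The consensus was GGGRNNYYCC, where R is A or G, Y is C or T and N is any base. The 2 matches in Cxcl1 and in Cxcl2 overlap each other by all but 1 base.

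Sele, chr1:164047984-164048283, plus strand: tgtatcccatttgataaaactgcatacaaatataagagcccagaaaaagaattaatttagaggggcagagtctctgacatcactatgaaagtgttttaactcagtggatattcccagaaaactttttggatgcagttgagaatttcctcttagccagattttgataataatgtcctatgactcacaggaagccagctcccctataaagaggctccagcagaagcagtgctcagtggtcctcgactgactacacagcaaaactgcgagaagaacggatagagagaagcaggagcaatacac

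Icam1, chr9:21015690-21015989, plus strand: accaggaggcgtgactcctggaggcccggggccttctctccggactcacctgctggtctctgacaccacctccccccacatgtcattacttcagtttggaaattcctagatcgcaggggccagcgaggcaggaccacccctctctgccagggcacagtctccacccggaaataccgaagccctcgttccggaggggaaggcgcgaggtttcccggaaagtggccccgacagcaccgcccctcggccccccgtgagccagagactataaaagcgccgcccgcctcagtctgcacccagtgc

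Nfkbia, chr12:55492598-55492897, minus strand: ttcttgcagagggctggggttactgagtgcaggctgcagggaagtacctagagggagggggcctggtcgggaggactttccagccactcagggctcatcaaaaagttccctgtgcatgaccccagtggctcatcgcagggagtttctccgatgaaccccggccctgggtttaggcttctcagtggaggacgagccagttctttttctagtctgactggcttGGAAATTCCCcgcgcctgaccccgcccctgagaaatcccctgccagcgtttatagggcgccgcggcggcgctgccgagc

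Cxcl1, chr5:90890995-90891294, plus strand: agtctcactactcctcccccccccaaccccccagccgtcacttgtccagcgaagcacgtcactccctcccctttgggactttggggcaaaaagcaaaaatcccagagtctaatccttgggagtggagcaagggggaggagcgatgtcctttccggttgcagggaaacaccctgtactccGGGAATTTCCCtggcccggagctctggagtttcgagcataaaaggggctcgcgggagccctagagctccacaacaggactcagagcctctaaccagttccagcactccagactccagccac

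Cxcl2, chr5:90903649-90903948, plus strand: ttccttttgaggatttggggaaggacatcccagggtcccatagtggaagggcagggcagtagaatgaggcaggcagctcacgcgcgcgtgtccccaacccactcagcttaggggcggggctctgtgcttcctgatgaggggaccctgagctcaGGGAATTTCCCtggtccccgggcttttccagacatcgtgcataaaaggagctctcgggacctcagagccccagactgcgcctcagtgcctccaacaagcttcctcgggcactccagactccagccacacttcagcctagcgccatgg

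The match in Nfkbia starts 29 bases before the transcript start, and those in Cxcl1 and Cxcl2 start 71 and 97 bases before it. A match occurred in 2779 of 32851 promoters of this length in the RefSeq table (8.46%). Counted by gene it occurred in 9 of 15 matched genes of the NF-kB list (60.0%), 7 of 15 of the chemokine list (46.7%) and 1 of 10 of the adhesion list (10.0%). Among genes tested in the Gja5 sub-clusters it occurred in 57 of 308 that fell (18.5%), 16 of 116 that rose (13.8%) and 1024 of 8153 in all (12.6%). The windows of Sele and Icam1 hold no exact match, and sites that depart from the consensus were not searched. A match, or the lack of one, is a description of the sequence only.

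Immediate early genes, which cells turn on within minutes of a signal or of tissue digestion, were also lower. Of 21 tested 15 fell, none rose, all 21 log2 fold changes were negative and the median was −0.93. Atf3, a stress-induced transcription factor, had 753 and 1015 CPM in AD_ABR against 2634 and 2476 CPM in AD (−1.59 ± 0.16, adjusted p = 9.47e-06). Zfp36, which encodes tristetraprolin, a protein that destabilises cytokine mRNA, fell by 1.62 ± 0.17 (adjusted p = 9.13e-06), Fosb by 1.20 ± 0.17 (adjusted p = 3.73e-04) and Egr1 by 1.11 ± 0.16 (adjusted p = 2.77e-04). These 4 kept their call in each of the 4 fits that left out 1 library, while the list's count ranged from 8 without AD_ABR library 1 to 18 without AD library 2. The libraries with more of these transcripts were also those with more Rn18s-rs5 (above), and the part of dissociation in this result was not tested.

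Some glucocorticoid-responsive genes rose. Of 17 tested, of 18 listed, 5 rose, 2 fell and 10 did not pass, with a median of 0.36. Zbtb16, a transcription factor strongly induced by glucocorticoids (chromosome 9, 48654297 to 48836222, minus strand, GRCm38), had 84.6 and 75.8 CPM in AD_ABR against 18.7 and 24.6 CPM in AD (1.78 ± 0.20, adjusted p = 3.53e-05). Fkbp5, a chaperone of the glucocorticoid receptor, had 30.1 and 41.9 CPM in AD_ABR against 5.68 and 11.8 CPM in AD (1.82 ± 0.30, adjusted p = 0.00102). Sult1a1, a sulphotransferase, had 46.0 and 48.5 CPM in AD_ABR against 8.92 and 13.2 CPM in AD (1.95 ± 0.24, adjusted p = 8.04e-05). The groups were well apart for all 3, and Zbtb16 and Sult1a1 were higher in both AD_ABR libraries in 5 of 5 Gja5 sub-clusters. In sub-cluster 7 the AD libraries held 0 and 0 UMIs of Zbtb16 and 1 and 1 UMIs of Sult1a1, from 6 and 22 cells. Fmo2, a flavin monooxygenase, rose by 1.25 ± 0.18 (adjusted p = 2.77e-04). It was higher in both AD_ABR libraries in 4 of 5 sub-clusters and lower in sub-cluster 3, with 29.98 and 33.0 CPM in AD_ABR against 169.5 and 129.3 CPM in AD. Tsc22d3, which encodes the anti-inflammatory protein GILZ, rose by 1.05 ± 0.17 (adjusted p = 8.99e-04). The 2 that fell were Per1, a clock gene, and Errfi1, a feedback inhibitor of the EGF receptor. Thinned to 2000 UMIs, 14.1% and 14.5% of Gja5 cells had a Zbtb16 UMI in AD_ABR, against 5.0% and 4.12% in AD. Smooth muscle cells also carry Zbtb16, at 25.4% and 23.7% in AD_ABR and 11.2% and 9.20% in AD, and in Gja5 cells their part in these shares was not tested.

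Some genes of protein folding in the endoplasmic reticulum rose. Of 17 tested, of 18 listed, 7 rose and 1 fell, with a median of 0.48. Manf, a secreted stress factor, had 385 and 418 CPM in AD_ABR against 192 and 202 CPM in AD (0.96 ± 0.15, adjusted p = 5.79e-04). Sdf2l1, a partner of the chaperone BiP, had 49.2 and 58.8 CPM in AD_ABR against 26.8 and 17.9 CPM in AD (1.29 ± 0.23, adjusted p = 0.00179). The other 5 were Creld2, Pdia6, Xbp1, Hsp90b1 and Calr, all lumen proteins or, for Xbp1, the factor that induces them. Atf4, the factor of the integrated stress response, fell by 0.94 ± 0.16 (adjusted p = 0.00108). Creld2 and Pdia6 lost their call without AD_ABR library 2, where the list had 3 calls, against 11 without AD library 2, and DESeq2 did not call Creld2 (adjusted p = 0.145).

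**Figure D4:**
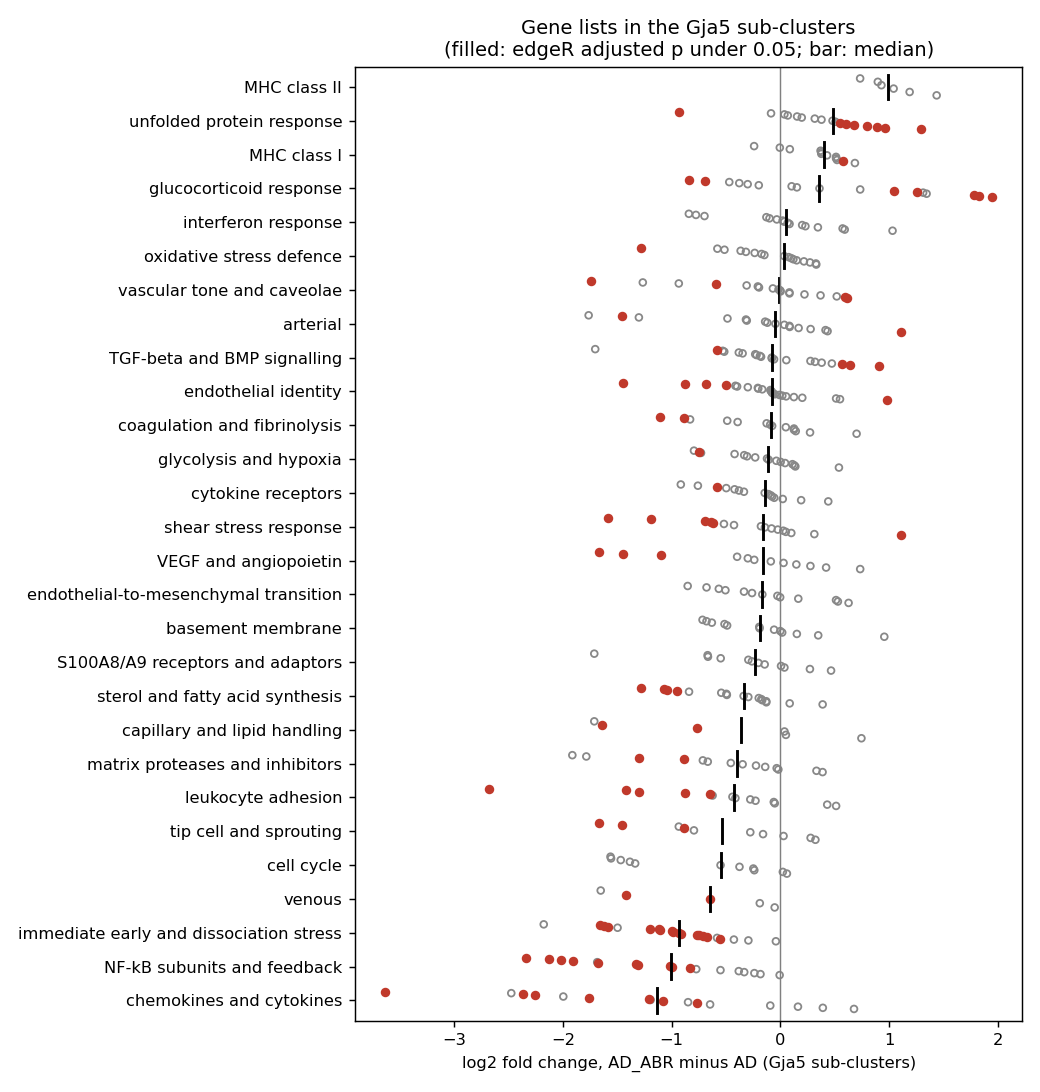
Log2 fold change, AD_ABR minus AD, of every tested gene of 28 lists in the Gja5 sub-clusters. Filled points passed edgeR's test at an adjusted p under 0.05 and the bar is the list's median, which is −1.01 for NF-kB subunits and feedback, −0.93 for immediate early genes, 0.48 for the unfolded protein response and near 0 for arterial genes.

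Of 17 arterial genes tested 1 rose and 1 fell, with a median of −0.05. Beside this and the other lists, 1.50% of all genes tested in the Gja5 sub-clusters rose and 4.00% fell. Gja4, which encodes the arterial connexin 37 (chromosome 4, 127311421 to 127314039, minus strand, GRCm38), had 404 and 352 CPM in AD_ABR against 166 and 170 CPM in AD (1.11 ± 0.15, adjusted p = 2.38e-04). Dll4, the arterial Notch ligand, had 14.7 and 14.6 CPM in AD_ABR against 44.6 and 34.6 CPM in AD (−1.45 ± 0.24, adjusted p = 0.00101). Gja4 was higher in AD_ABR in 5 of 5 sub-clusters, and neither gene's groups overlapped. In sub-cluster 7 the AD libraries held 7 and 11 UMIs of Gja4. Sox18, a transcription factor of vessel formation, rose by 0.98 ± 0.23 (adjusted p = 0.0212), and Lfng, a glycosyltransferase that tunes Notch receptors, rose by 1.32 ± 0.26 (adjusted p = 0.00413), which DESeq2 did not call (adjusted p = 0.0856).

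In the VEGF and angiopoietin list 3 of 12 tested genes fell and none rose, with a median of −0.16. Flt1, a VEGF receptor that also exists as a soluble decoy (chromosome 5, 147561604 to 147726011, minus strand, GRCm38), had 76.5 and 56.0 CPM in AD_ABR against 201 and 151 CPM in AD (−1.45 ± 0.19, adjusted p = 1.74e-04). Vegfc, a ligand of lymphatic growth, had 16.3 and 16.9 CPM in AD_ABR against 35.7 and 33.2 CPM in AD (−1.10 ± 0.23, adjusted p = 0.00723), and lost its call without either AD_ABR library, with an adjusted p of up to 0.0740. DESeq2 did not call Vegfc either (adjusted p = 0.136). The third was Pgf, placental growth factor, which kept its call in 1 of the 4 fits that left out a library and was not called by DESeq2 (adjusted p = 0.270).

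Among 16 genes of the response to blood flow, 5 fell and 1, Gja4, rose. Klf6, a Kruppel-like factor, fell by 1.19 ± 0.16 (adjusted p = 2.32e-04), and Hmox1, haem oxygenase 1, by 1.59 ± 0.28 (adjusted p = 0.00175). Klf2, the flow-induced factor that keeps endothelium quiescent, had 1832 and 2007 CPM in AD_ABR and 2705 and 2256 CPM in AD and did not pass (−0.43 ± 0.15, adjusted p = 0.114). Nos3, endothelial nitric oxide synthase, had 288 and 254 CPM in AD_ABR and 304 and 299 CPM in AD and did not pass (−0.21 ± 0.15, adjusted p = 0.478).

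In the list of vascular tone 2 of 18 tested genes rose and 2 fell. Ptgs2, cyclooxygenase 2, had 46.8 and 37.2 CPM in AD_ABR against 189 and 91.4 CPM in AD (−1.74 ± 0.36, adjusted p = 0.0446). Ptgis, prostacyclin synthase, which DESeq2 did not call (adjusted p = 0.0631), had 528 and 577 CPM in AD_ABR against 289 and 403 CPM in AD (0.61 ± 0.17, adjusted p = 0.0372), and lost its call without either AD_ABR library, with an adjusted p of up to 0.380. Plat, the tissue plasminogen activator, fell by 1.11 ± 0.19 (adjusted p = 0.00128), 1 of 2 falls among 14 coagulation and fibrinolysis genes. Adamts1, a protease of the matrix proteoglycan versican, had 283 and 252 CPM in AD_ABR against 664 and 604 CPM in AD (−1.30 ± 0.15, adjusted p = 3.83e-05), 1 of 2 falls among 14 matrix proteases and inhibitors.

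Of 21 genes of TGF-beta and BMP signalling 3 rose and 1 fell, with a median of −0.08. Bmp4 had 1146 and 1398 CPM in AD_ABR against 784 and 872 CPM in AD (0.56 ± 0.15, adjusted p = 0.0362) and lost its call without either AD_ABR library, with an adjusted p of up to 0.634. Smad6, an inhibitor of BMP signals, rose by 0.90 ± 0.18 (adjusted p = 0.00595) and lost its call without AD_ABR library 1 (0.253). Of 17 sterol and fatty acid synthesis genes 4 fell, among them Scd2, a fatty acid desaturase, by 1.29 ± 0.20 (adjusted p = 5.03e-04). Of 17 genes of oxidative stress defence 1 fell, Txnrd1, a thioredoxin reductase.

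Of 25 endothelial identity genes 1 rose and 4 fell, of 15 cytokine receptors 1 fell, and of 16 glycolysis and hypoxia genes 1 fell. In 5 lists no gene passed edgeR's adjusted test or DESeq2's, while some had an unadjusted edgeR p under 0.05. These were 4 of 13 tested for endothelial-to-mesenchymal transition, 6 of 13 for basement membrane, 5 of 16 for interferon response, 5 of 11 for cell cycle and 3 of 12 for the receptors and adaptors of S100A8 and S100A9. Over all 10488 genes tested, 2070 had an unadjusted edgeR p under 0.05. Ager was not tested, with at most 0.81 CPM in any library, and S100a8 itself had 0.41 and 0.47 CPM in AD_ABR and 19.5 and 0.36 CPM in AD, in AD library 1 beside its neutrophil markers. Of 6 MHC class II genes tested 0 passed in edgeR or DESeq2 and 0 had an unadjusted p under 0.05, while all 6 log2 fold changes were positive and the median was 0.98. Cd74, the invariant chain, had 63.1 and 289 CPM in AD_ABR and 85.2 and 45.7 CPM in AD (1.44 ± 1.15, adjusted p = 0.632), so AD_ABR library 2 alone was high. H2-K1, of MHC class I, rose by 0.58 ± 0.16 (adjusted p = 0.0358) and lost its call without either AD_ABR library, with an adjusted p of up to 0.703.

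Outside the lists the largest falls included Noct, a circadian nuclease, with 5.70 and 2.82 CPM in AD_ABR against 80.3 and 32.1 CPM in AD (−3.61 ± 0.64, adjusted p = 0.0351). Abcb1a, the P-glycoprotein efflux pump, had 2.85 and 1.88 CPM in AD_ABR against 20.3 and 27.1 CPM in AD (−3.38 ± 0.39, adjusted p = 3.59e-05). Apold1, an endothelial early response gene, had 8.14 and 5.65 CPM in AD_ABR against 65.7 and 28.2 CPM in AD (−2.68 ± 0.46, adjusted p = 0.00997). No AD_ABR library reached an AD library in these 3. Among the largest rises were Adam33, a membrane metalloprotease, with 23.6 and 19.8 CPM in AD_ABR against 3.24 and 4.64 CPM in AD (2.31 ± 0.36, adjusted p = 5.30e-04), and Pla2g5, a secreted phospholipase, with 59.0 and 62.1 CPM in AD_ABR against 11.4 and 27.5 CPM in AD (1.43 ± 0.26, adjusted p = 0.00360). Pla2g5 was among the leading genes of sub-clusters 4 and 7, at 83.2 and 105 CPM. Sub-cluster 4 had 54 and 40 cells in AD_ABR against 20 and 93 in AD, and sub-cluster 7 had 47 and 53 against 6 and 22. The part of this makeup in the rise of Pla2g5 was not tested. Hdac9, a histone deacetylase, rose by 1.53 ± 0.36 (adjusted p = 0.0231). DESeq2 did not call it (adjusted p = 0.506), and its log2 fold change ran from 1.07 to 3.23 when 1 library was left out.

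The Fabp4 sub-cluster had too few AD_ABR cells for a test, with 35855 and 30714 UMIs in AD_ABR against 527057 and 423838 in AD. Its 7 cells of AD_ABR library 1 had 558 CPM of Sele, from 20 UMIs, and 1841 CPM of Selp, near the 531 and 552 CPM of Sele and the 1928 and 1939 CPM of Selp in AD. The 7 cells of AD_ABR library 2 had no Sele UMI and 1 Selp UMI. They carried 26 UMIs of Esm1, a gene of sprouting tip cells, and 32 UMIs of Gpihbp1, a capillary gene. Both genes had 0 UMIs in AD_ABR library 1. The AD_ABR cells of this sub-cluster were thus unlike between the libraries.

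Whether the change between groups differed from that in other cells of the same wall was tested with edgeR's quasi-likelihood test of the difference of group effects. Smooth muscle cells were barcodes with at least 1% of UMIs from Acta2 and Tagln, at least 2 UMIs of Myh11 and no UMI of the endothelial genes or Ptprc, and numbered 3166 and 2648 in AD_ABR against 817 and 1739 in AD. Fibroblasts had at least 1% of UMIs from Dcn, Lum and Col1a1, a Pdgfra UMI, less than 0.3% from Acta2 and Tagln and likewise no UMI of the endothelial genes or Ptprc, and numbered 1870 and 2909 against 1248 and 2509. The change in the Gja5 sub-clusters was higher than that in smooth muscle for 116 of 13256 genes (0.875%) and lower for 223 (1.68%), 2.56% in all. It was higher than that in fibroblasts for 372 of 14667 genes (2.54%) and lower for 463 (3.16%), 5.69% in all. Over all chosen cells it was higher than in smooth muscle for 249 of 13824 genes (1.80%) and lower for 136 (0.984%), 2.79% in all, and differed from that in fibroblasts for 341 of 14979 genes (2.28%). The endothelial cells, smooth muscle cells and fibroblasts come from the same 4 libraries.

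The fall of NF-kB genes was not particular to endothelium. Of the 18 genes 13 fell in smooth muscle, where 6.78% of all genes fell, and 11 fell in fibroblasts, where 8.09% of all genes fell. The fall was larger in the Gja5 sub-clusters than in smooth muscle for 5 of 18, Nfkbia, Nfkbiz, Irf1, Rel and Rela. For Nfkbiz the difference of log2 fold changes was −1.21 ± 0.12 against smooth muscle (adjusted p = 2.24e-05) and −1.32 ± 0.13 against fibroblasts (adjusted p = 9.61e-08). Smooth muscle had 170 and 148 CPM of Nfkbiz in AD_ABR against 309 and 275 CPM in AD, and fibroblasts 317 and 288 CPM against 516 and 500 CPM.

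Immediate early genes differed more widely between cell types. Against smooth muscle 13 of 21 fell more in the Gja5 sub-clusters, and against fibroblasts 16 of 21. Atf3 had 1158 and 1313 CPM in AD_ABR against 1663 and 2017 CPM in AD in smooth muscle, and 1113 and 1429 CPM against 959 and 951 CPM in fibroblasts. The difference of log2 fold changes was −1.10 ± 0.13 from smooth muscle (adjusted p = 1.57e-04) and −2.06 ± 0.12 from fibroblasts (adjusted p = 2.30e-12).

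The changes of Flt1 and Gja4 in the Gja5 sub-clusters differed from those in both other cell types. Over all chosen cells Flt1 also differed from both, while Gja4 differed from fibroblasts and not from smooth muscle. In fibroblasts alone Gja4 passed as a fall. Flt1 changed by −1.37 ± 0.16 relative to smooth muscle (adjusted p = 9.71e-05) and −2.54 ± 0.18 relative to fibroblasts (adjusted p = 6.40e-11), where it had 31.2 and 27.95 CPM in AD_ABR against 14.8 and 13.8 CPM in AD. Gja4 changed by 1.40 ± 0.20 relative to smooth muscle (adjusted p = 7.14e-04) and 3.41 ± 0.21 relative to fibroblasts (adjusted p = 5.52e-12), both of which had at most 10.5 CPM of it. Vegfc changed by −1.37 ± 0.28 relative to smooth muscle (adjusted p = 0.0103) and −1.77 ± 0.24 relative to fibroblasts (adjusted p = 1.28e-05).

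The glucocorticoid and folding genes rose in the other cell types as well. Of the glucocorticoid list 5 rose in smooth muscle and 11 in fibroblasts, where 4.68% and 7.03% of all genes rose, and none rose more in the Gja5 sub-clusters than in smooth muscle, while 2, Errfi1 and Dusp1, were lower relative to it. Relative to fibroblasts 1 of 18, Ddit4, was higher and 4, Tsc22d3, Errfi1, Dusp1 and Klf9, were lower. For Zbtb16 the difference was 0.30 ± 0.20 from smooth muscle (adjusted p = 0.575) and −0.34 ± 0.22 from fibroblasts (adjusted p = 0.466), which does not show that the changes were equal. Manf differed by 0.14 ± 0.13 and 0.29 ± 0.13 (adjusted p = 0.704 and 0.232). Of 17 genes of the unfolded protein response 0 passed edgeR's test of the difference from smooth muscle, and 2 (Hspa5 and Atf4) had an unadjusted p under 0.05. Relative to fibroblasts 2 of 17, Calr and Pdia6, were higher and 3, Herpud1, Dnajb9 and Atf4, were lower. Of the adhesion genes, Sele, Selp and Vcam1 also fell in fibroblasts. Vcam1 had 223 and 164 CPM there in AD_ABR against 499 and 629 CPM in AD, and its change in the Gja5 sub-clusters was higher than in fibroblasts by 0.86 ± 0.13 (adjusted p = 7.58e-05), so the fall was larger in fibroblasts. Sele had 0.45 and 0.40 CPM in fibroblasts in AD_ABR against 7.61 and 12.2 CPM in AD, with a difference of 1.72 ± 0.37 in the same direction (adjusted p = 0.00703), and for Selp the difference of 2.19 ± 1.04 did not pass (adjusted p = 0.503). Levels of Sele in smooth muscle were as low, at 1.07 and 0.08 CPM in AD_ABR and 1.40 and 5.55 CPM in AD, and the part of free RNA in these low levels was not tested. Against smooth muscle Sele, Selp, Vcam1 and Icam1 did not pass the test of the difference, with adjusted p-values from 0.360 to 1.0.

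**Figure D5:**
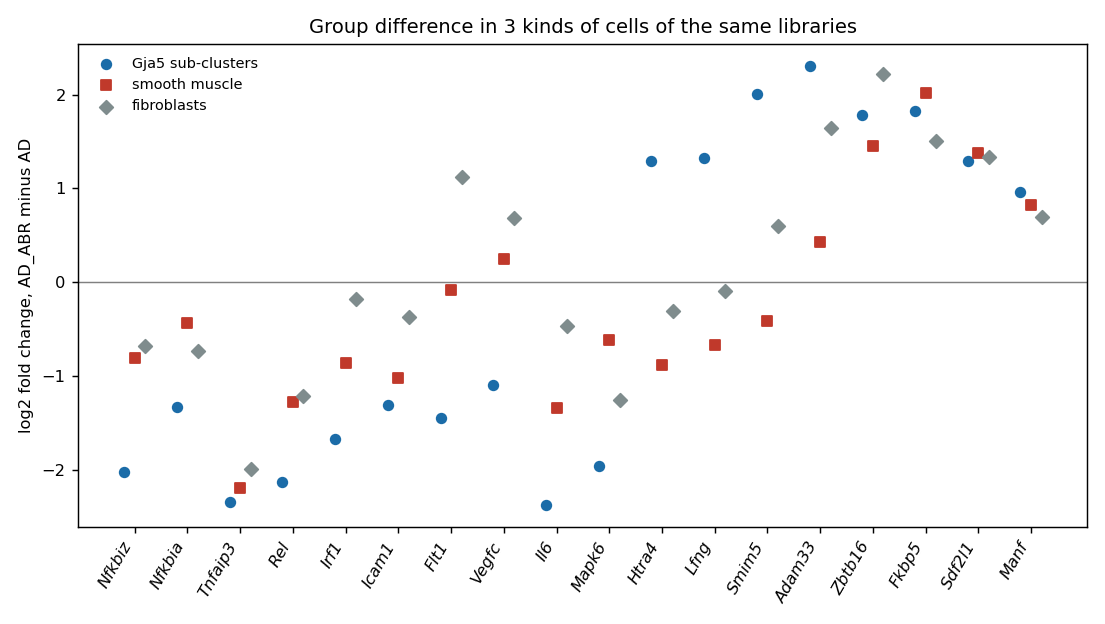
Log2 fold change, AD_ABR minus AD, of 18 genes in the Gja5 sub-clusters, smooth muscle cells and fibroblasts of the same 4 libraries. Nfkbiz, Irf1 and Flt1 lie lower in the Gja5 sub-clusters than in the other cell types, and Zbtb16, Fkbp5 and Manf lie above 0 in all 3 cell types.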

How the data were processed

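The libraries were droplet-based, 3′-end single-cell libraries of the ascending aorta. The authors' deposited matrices hold whole-number UMI counts per gene and barcode, and the counts come from Cell Ranger, version 7.1.0 per the file headers and 6.0 per the submitters' processing notes, which also name STAR, Seurat 4.0 and GRCm38. No deposited file here gives cell types.

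Barcodes were kept as the report states, and doublet scores (the highest 0.8% per 1000 barcodes) were computed but removed only in an alternative. Counts of the chosen cells were summed per library and tested with edgeR 4.0.16 in R 4.3.3 (filterByExpr, TMM, robust quasi-likelihood F-test, Benjamini-Hochberg over all genes tested); standard errors are the fold change divided by the root of F. Differences from smooth muscle and fibroblasts were tested with the library as a term. Sub-clusters came from scanpy 1.11.5 (Leiden, resolution 0.8, 20 components, 15 neighbours, 2000 variable genes). On simulated counts, 49.5% of 2-fold and 95.5% of 4-fold changes were recovered in all chosen cells, and 44.5% and 93.0% in the Gja5 sub-clusters. For a difference of group effects 9.0% and 85.5% were recovered. Both sides of that difference were simulated from the sums of all chosen cells, without smooth muscle or fibroblast counts. The chosen cells, gene lists and alternatives were set with earlier results of these data known. Named genes were the markers, the 12 largest changes in each direction of at least 20 CPM, up to 4 of lowest p per list, and the 5 largest differences per direction. Gene models of GENCODE M21 matched 52081 of 55357 identifiers. The labels do not say that replicate numbers pair the libraries. Deviations of same-numbered libraries correlated at 0.07 over all chosen cells, which cannot exclude a pairing, since each group gives only 1 deviation per gene. Intervals and limits cover counting error only.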

Additional observations from a re-analysis of the deposited data

Results flagged for a closer look

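Over all chosen cells, some group effects (AD_ABR minus AD, log2) differed from the effect in smooth muscle cells or fibroblasts of the same libraries, each at an adjusted p under 0.05 in edgeR's test of the difference. The 20 values below are the effect in all chosen cells, the fibroblast-gene-led sub-clusters among them, minus that in the other cell type. The part of the makeup of the chosen cells in these values was not tested. Without those sub-clusters the group effects of Ren1 and Cox4i2 could not be tested. Among the higher ones, the difference from smooth muscle was 3.14 for Cox4i2, 3.19 for Nrtn, 2.95 for Tnfrsf11b, 3.20 for Procr and 2.77 for Heyl, and the difference from fibroblasts was 3.11 for Ren1, 3.16 for Cox4i2 and 2.93 for Tnfrsf11b.

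Other effects were lower in the chosen cells. Among these was Fabp4, which within the Gja5 sub-clusters had 326 and 365 CPM in AD_ABR and 231 and 408 CPM in AD, which overlapped. The difference from smooth muscle was −2.60 for Fabp4, −3.06 for Itga6, −3.77 for Tmem252 and −4.62 for Ankrd1, and the difference from fibroblasts was −3.96 for Tmem252, −4.27 for Csf2rb and −8.65 for Aplnr, which had 0 UMIs in AD_ABR library 2. Gja4, higher than in fibroblasts by 3.22, and Ube2c, of cell division, higher by 2.98, completed the higher ones. Hbb-bs (−3.79 against smooth muscle), Col2a1 (−6.48 against fibroblasts) and Pglyrp1 (−3.76 against fibroblasts) were also lower. The chosen cells held 2 and 2 UMIs of Hbb-bs in AD_ABR against 251 and 2 in AD, and 0 and 0 UMIs of Col2a1 against 585 and 29, so AD library 1 held most of both. Without AD library 1 Hbb-bs was too low to be tested, and the difference was −6.86 for Col2a1 (adjusted p = 0.0417) and −2.32 for Pglyrp1 (adjusted p = 0.0987). Without AD_ABR library 1 it was −3.38 for Col2a1 (adjusted p = 0.871). Itga6 and Tnfrsf11b against smooth muscle and Pglyrp1 lost their call without either AD_ABR library, Hbb-bs without AD_ABR library 1, and Tmem252 against fibroblasts without AD_ABR library 2.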

How the results depend on the processing

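Over all chosen cells 889 genes changed. The count was 1931 with no filter on low counts, 310 without the fibroblast-gene-led sub-clusters, and 508 to 3340 when 1 library was left out, lowest without AD_ABR library 2 and highest without AD library 2. In the Gja5 sub-clusters 576 genes changed, 260 by DESeq2 and 245 to 1636 with 1 library left out, lowest without AD_ABR library 2 and highest without AD library 2, and 163 were called in all 4 of those fits. Rises made up 27.3% of the calls there and 47.7% without AD library 2. With the replicate number as a block the Gja5 count was 991, and since the labels give no pairing this is not used as a measure of strength. The difference from smooth muscle covered 385 genes in all chosen cells, 1215 with no filter, 587 with the highest doublet scores removed, and 231 to 1092 with 1 library left out; that from fibroblasts covered 341, 1093 with no filter and 212 to 1199. For the Gja5 sub-clusters the differences covered 339 genes against smooth muscle (244 to 607) and 835 against fibroblasts (505 to 964).

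The difference in the share of endothelial cells, −0.06 points, was 0.16 without AD_ABR library 1, 0.57 without AD library 2, 0.0199 with doublets removed and 0.10 with Acta2 and Tagln under 1% of UMIs, against −0.69 to 0.57 over all fits with 1 library left out. Cd74 in the Gja5 sub-clusters was −0.0583 without AD_ABR library 2 and 2.14 without AD_ABR library 1. Among genes given as a rise or fall none changed sign in an alternative that tested it; without the fibroblast-gene-led sub-clusters Kcnj8 and Cox4i2 could not be tested, and the levels of Kcnj8 then overlapped between the groups. Of the other genes examined, 5 called over all chosen cells changed sign there: Ndufa4l2, F3, Tgfb3, S100a4 and Col15a1. With 2 libraries a group, calls rest on spread borrowed across genes, and a lone library is taken to vary like the others; 2-fold changes were recovered less often than not on simulated counts.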
